A study of Rattus norvegicus with 3 samples.

Results

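The genes described here are 10 growth arrest genes of the p53 and GADD45 pathway: the 3 GADD45 genes Gadd45a, Gadd45b and Gadd45g, and Cdkn1a, Mdm2, Tp53inp1, Zmat3, Btg2, Ccng1 and Sesn1. They were chosen by name, as the non-control probes whose gene name on the array is one of these 10, among 26115 gene names in all. The choice was made with earlier results of these data known, so counts set against all genes are not independent of these data. The array carried 13 probes for them in 24 spots. The cells were ROS17/2.8, an established clonal line from a rat osteosarcoma that serves as an osteoblast model, read on 3 one-colour arrays. All cells were confluent and stood in mineralization medium, which adds ascorbate phosphate and β-glycerophosphate to serum-containing growth medium. One array came from cells with 1 mg/ml polyphosphate, a linear chain of phosphate residues (the high dose), one from cells with 0.01 mg/ml (the low dose) and one from cells without polyphosphate (the control). Treatment lasted 24 h, and a time for the control cells is not in the labels. With a single array in each group, differences have no replicate check and carry no p-value. Both dose comparisons use the same control array, and the comparison of the doses uses the same treated arrays again.

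The transcription factor p53 is held low by Mdm2, a ubiquitin ligase that is itself a p53 target and so closes a feedback loop. When DNA damage or another stress stabilises p53, it switches on genes that halt the cell cycle, repair DNA or remove the cell. The GADD45 proteins are small stress-induced proteins that bind cell cycle and MAP kinase partners, and their genes also respond to signals that do not pass through p53, among them the integrated stress response. In bone-forming cells, growth arrest accompanies the passage from proliferation to matrix mineralization.

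The probes are short strands that match the transcript, and their letters show which part of each mRNA was read. The GADD45 probes are shown because the 3 genes are paralogs, and those of Mdm2 and Zmat3 because each gene has a pair of probes. Gadd45g, the Mdm2 probe at base 570 of its transcript and the Zmat3 probe at base 995 are printed whole (60 bases), the others by their first 30 bases, in the sense of the mRNA.
Gadd45a, base 640: aacggtgattccccgaacggtgatggcatc
Gadd45b, base 676: aaccagtgggtcccctatatctctctggag
Gadd45g, base 474: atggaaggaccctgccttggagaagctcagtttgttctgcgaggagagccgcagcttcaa
Mdm2, base 570: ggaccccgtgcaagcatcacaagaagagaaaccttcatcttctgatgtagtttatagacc
Mdm2, base 2609: atggagtaaccaaaggatagttctgtattg
Zmat3, base 995: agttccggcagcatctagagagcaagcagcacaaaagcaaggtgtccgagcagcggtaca
Zmat3, base 7403: ctctcatgtatgtactgatttctgataaag
The GADD45 probes shared no run longer than 6 bases with each other, and the best ungapped alignment of any pair matched 21 of 60 bases. In the coordinates of the files (build rn4), the Gadd45a probe lies at chr4:96650454-96650513, minus strand, and the Gadd45g probe at chr17:19231421-19231480, minus strand. The file places the Gadd45b probe at chr7:10289049-10289076, a span of 28 bp that is shorter than the probe. The Mdm2 probe at base 570 spans 335 bp (chr7:57005501-57005835) in the file, more than its 60 bases, as for a probe aligned in pieces. The other Mdm2 probe lies at chr7:56996880-56996939. The files do not say which exon or UTR a probe lies in. The Zmat3 probes lie at chr2:118531329-118531388 and chr2:118537633-118537692.

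On every array 11 of the 13 probes stood well above background, which gave 9 measured genes. No spot of the 10 genes was saturated or marked as an outlier. The 75th percentile of the signal, by which each array was scaled, was 937 (high), 964 (low) and 926 (control). Values after ± are spot errors, which express how much repeat spots of a probe scatter, carried through to the log2 ratio. Variation from culture or labelling is not in them. Of 9 osteoblast markers, 7 were well above background on every array, and the osteocyte-associated genes Dmp1 and Phex were not. Sums of marker signals are given before scaling, with the brightest probe of each gene. The sum over all 9 ranged from 26382 to 27714 over the arrays. This sum hides opposite directions, since at the high dose 5 of the 7 had log2 ratios to control below 0 and 2 above. Their median was -0.13 (0.02 when centred on spike-in probes), from Col1a1 at -0.23 ± 0.05 to Spp1 at 0.26 ± 0.02. Of the other cell types looked for, 2 of 4 endothelial markers were well above background on every array, and the signal summed over all 4 was 245 at the high dose, 206 at the low dose and 209 in the control. Kdr and Tek were not above background. Of 5 macrophage markers 4 were above background, not the defining gene Ptprc, and the sums over all 5 were 508, 518 and 529 in that order. These sums too hide opposite directions. At the high dose 2 of the 4 were above 0 and 2 below, from Csf1r at 0.32 ± 0.22 to Itgam at -0.31 ± 0.11. Of 5 chondrocyte markers 2 were above background, not Acan or Col2a1, with sums over all 5 of 432, 600 and 425. Against control at the high dose Hapln1 stood at -0.34 ± 0.14, with probes at -0.83 and 0.15, and Sox9 at -0.11 ± 0.10. Of 5 adipocyte markers 1 was above background, not Pparg or Adipoq, with sums over all 5 of 165, 170 and 151. The cells were a clonal line, so these are signals read in that line and not a measure of other cell types. Their part in the results was not tested. In such bulk RNA, fewer cells that express a gene and less of its RNA per cell cannot be told apart.

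**Figure D1:**
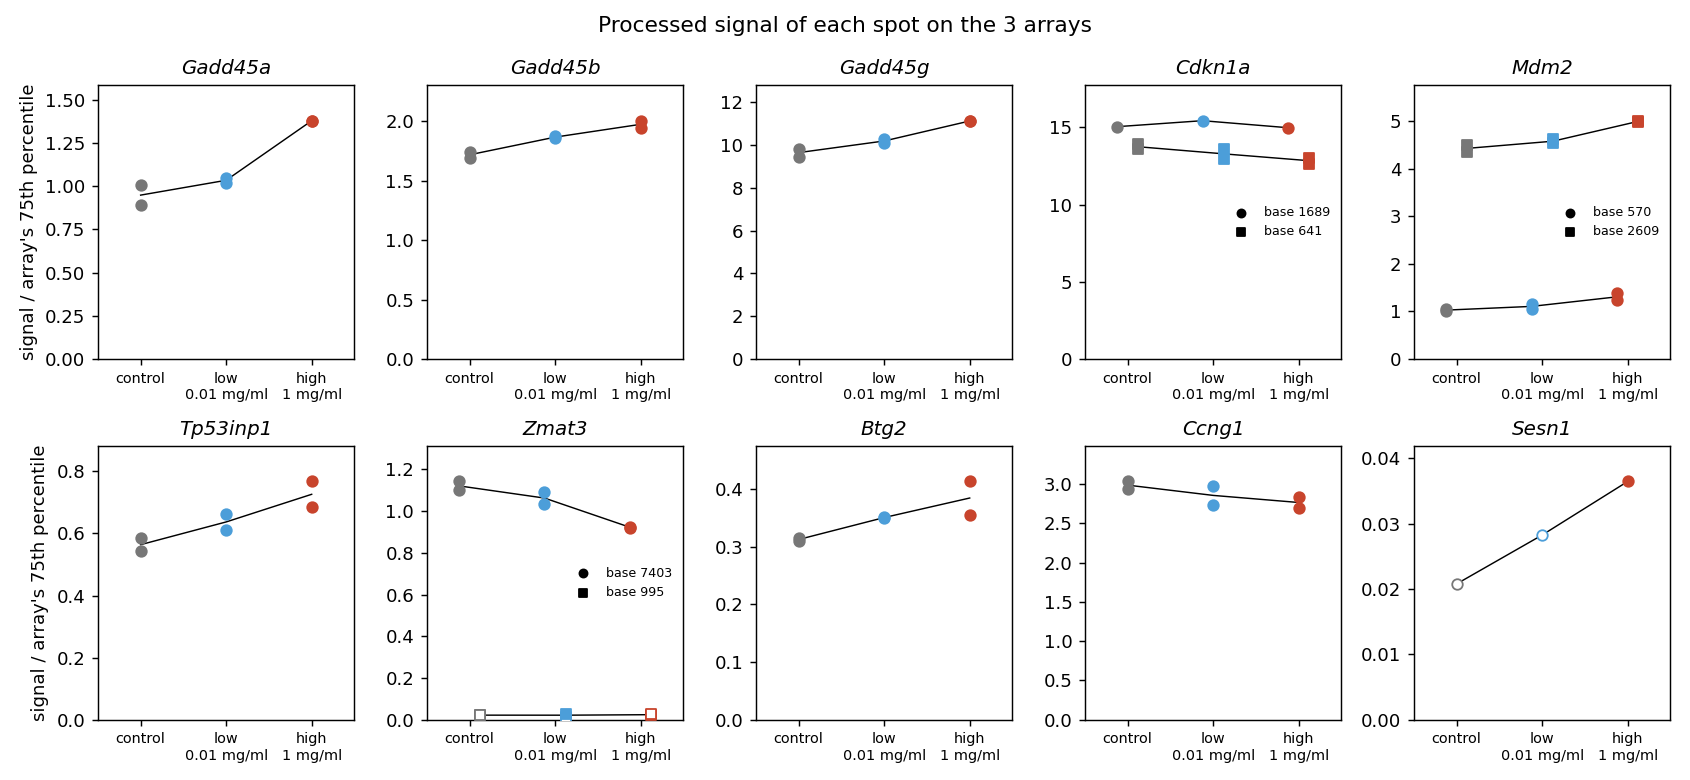
Processed signal of every spot of the 10 genes, divided by the array's 75th percentile (vertical axis, linear, from 0), on the control, low dose and high dose arrays. Each point is 1 spot, lines join the means of a probe, open symbols were not well above background, and circles and squares are separate probes named by their position in the transcript. The high dose points lie above the control points for Gadd45a, Gadd45b, Gadd45g, Mdm2, Tp53inp1 and Btg2, and below them for Ccng1, for the Zmat3 probe at base 7403 and for the Cdkn1a probe at base 641.

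The first comparison set the high dose against the control. Of the 9 measured genes Gadd45a was furthest from the control, 1.46-fold higher, followed by Tp53inp1 at 1.29-fold and Btg2 at 1.23-fold, and Zmat3 was 1.22-fold lower. Thus 3 of 9 measured genes were at least 1.2-fold higher, against 7.16% of 14495 measured genes, and 1 was at least 1.2-fold lower, against 7.87%. Dim genes scatter more (SD of log2 ratios 0.20 over all genes and 0.13 at or above the median level), and 8 of the 9 lay at or above that level. Among all such genes the shares were 2.35% higher and 2.54% lower, and among the 8 there were 2 higher and 1 lower. None of the 9 was 2-fold apart, as were 0.0621% of all genes upward and 0.0552% downward. The median log2 ratio of the 9 was 0.21, against -0.01 for all measured genes. Beyond 2 spot errors from 0, 6 genes were higher (10.7% of all genes) and 1 lower (12.8%).

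Centring on spike-in probes moved the median of all genes from -0.01 to 0.15 for the high dose and from 0.00 to 0.16 for the low dose. Under that scaling 89.7% of the genes past 1.2-fold at the high dose were higher in place of 47.6%, and 89.8% at the low dose in place of 44.0%. The 6 genes above 0 kept that direction under each of the 10 processing alternatives in every comparison. The signs of Cdkn1a and Ccng1 against control turned under spike-in centring, as did that of Zmat3 at the low dose. Normexp background correction put the higher share at 32.8% for the low dose, and at 62.6% in place of 53.2% for the high against the low dose.

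Gadd45a, whose product binds PCNA, p21 and the kinase Cdk1 and slows entry into mitosis, had signals of 1292 and 1291 in its pair of spots at the high dose. The spots read 984 and 1011 at the low dose and 934 and 823 in the control. Neither treated array overlapped the control once scaled, and the high dose stood clear of the other arrays. The log2 ratio to control was 0.54 ± 0.07, and over all pairings of a high dose with a control spot it ranged from 0.45 to 0.63. Of 14495 genes 159 had a higher ratio, and 10 of 7248 among genes at or above the median level. At the low dose the ratio was 0.13 ± 0.07, with pairings from 0.02 to 0.24, and 0.41 ± 0.06 separated the high from the low dose.

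Gadd45b, a paralog induced by TGF-beta and NF-kappaB signals, read 1569 and 1613 in the control, 1793 and 1806 at the low dose and 1821 and 1878 at the high dose. Its log2 ratio to control was 0.20 ± 0.06 at the high and 0.12 ± 0.06 at the low dose. The doses lay 0.08 ± 0.06 apart, within 2 spot errors. Gadd45g, the third paralog, read 8767 and 9114 in the control, 9923 and 9736 at the low dose and 10412 and 10439 at the high dose. Its log2 ratio to control was 0.21 ± 0.05 at the high and 0.08 ± 0.05 at the low dose. All 3 GADD45 genes were thus lowest in the control and highest at the high dose, and 1 of them, Gadd45a, was past 1.2-fold. For Gadd45b the low dose lay nearer to the high dose than to the control, for Gadd45a nearer to the control. For each of the 3 genes the step from control to low dose was within 2 spot errors.

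Mdm2 was read by 2 probes. The probe at base 570 gave 937 and 969 in the control, 1121 and 1013 at the low dose and 1291 and 1159 at the high dose. The probe at base 2609 gave 4042 and 4165 in the control, 4373 and 4459 at the low dose and 4694 and 4670 at the high dose. Both probes were highest at the high dose, with log2 ratios to control of 0.34 ± 0.07 and 0.17 ± 0.05. The probes differed by 0.17 ± 0.08 in this comparison. Their mean, 0.26 ± 0.04, lay just under the 1.2-fold line. At the low dose the mean was 0.08 ± 0.04, and the high dose lay 0.18 ± 0.04 above the low dose.

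Tp53inp1, which encodes a p53-induced nuclear protein with roles in stress response and autophagy, read 541 and 503 in the control, 638 and 590 at the low dose and 719 and 641 at the high dose. The spots of the 3 arrays did not overlap after scaling. The log2 ratio to control was 0.36 ± 0.07 at the high and 0.18 ± 0.08 at the low dose. It was the 1 gene of the 9 that lay beyond 2 spot errors from the control at the low dose. The probe lies at chr5:25014127-25014184 (rn4).

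Btg2, an antiproliferative gene that recruits mRNA deadenylases, read 291 and 287 in the control, 339 and 337 at the low dose and 333 and 387 at the high dose. The high dose spots differed most, and after scaling the lower of them still lay above both low dose spots. The log2 ratio to control was 0.29 ± 0.09 at the high and 0.17 ± 0.09 at the low dose, and the doses differed by 0.13 ± 0.08. Btg2 was the 1 measured gene of the 9 below the median level. Its probe lies at chr13:47027022-47027081 (rn4).

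Zmat3, a p53 target that encodes a zinc finger RNA-binding protein, was lower. Its probe at base 7403 read 1019 and 1058 in the control, 996 and 1053 at the low dose and 863 and 865 at the high dose. The high dose spots lay below all others. The log2 ratio to control was -0.28 ± 0.07 at the high and -0.08 ± 0.07 at the low dose, and the high dose lay at -0.20 ± 0.07 against the low dose. Centred on spike-ins, the high dose ratio to control was -0.13, short of 1.2-fold and within 2 spot errors of 0. Of 7248 genes at or above the median level, 134 had a lower ratio. The probe at base 995 was near background, at 21.6 and 24.2 for the high dose, 14.5 and 27.9 for the low dose and 20.9 and 20.3 in the control, and had no measured ratio. With that dim probe averaged in, Zmat3 stood at -0.07 against control and at 0.01 against the low dose.

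Cdkn1a, which encodes the CDK inhibitor p21 and is the best known arrest target of p53, differed by less than 2 spot errors in every comparison. The probe at base 641 read 12590 and 12882 in the control, 12522 and 13101 at the low dose and 11836 and 12224 at the high dose. The single spot at base 1689 read 13940, 14883 and 14033 in that order. The first probe was lowest at the high dose, the second was highest at the low dose. The mean log2 ratio to control was -0.05 ± 0.05 at the high and -0.01 ± 0.05 at the low dose, and the latter turned sign under 4 of the 10 alternatives. The probes lie at chr20:7385536-7385595 and chr20:7386596-7386655 (rn4).

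Ccng1, encoding cyclin G1, a p53 target that feeds back on Mdm2, read 2722 and 2810 in the control, 2638 and 2867 at the low dose and 2520 and 2660 at the high dose. The low dose spots overlapped those of both other arrays. The log2 ratios to control were -0.11 ± 0.06 and -0.07 ± 0.06 for the high and the low dose, each within 2 spot errors of 0, although both high dose spots lay below both control spots. Its probe spans 275 bp at chr10:25778638-25778912 (rn4).

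Sesn1, which encodes a sestrin that restrains mTORC1 under stress, had 1 spot per array, at chr20:45876719-45876778 (rn4). It read 34.1 at the high dose, where it was well above background, and 27.2 at the low dose and 19.3 in the control, where it was not. The high dose reading was 1.75-fold the control reading and 1.29-fold the low dose reading after scaling. The log2 values of these ratios were 0.81 ± 0.35 and 0.37 ± 0.37. Their errors were pooled from probes well above background, which this spot was not at the low dose or in the control. These errors therefore cannot show whether either ratio differs from 0. Because the spot was well above background at the high dose alone, neither ratio counts as measured or as a lower bound. No ratio is given for the low dose against the control.

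**Figure D2:**
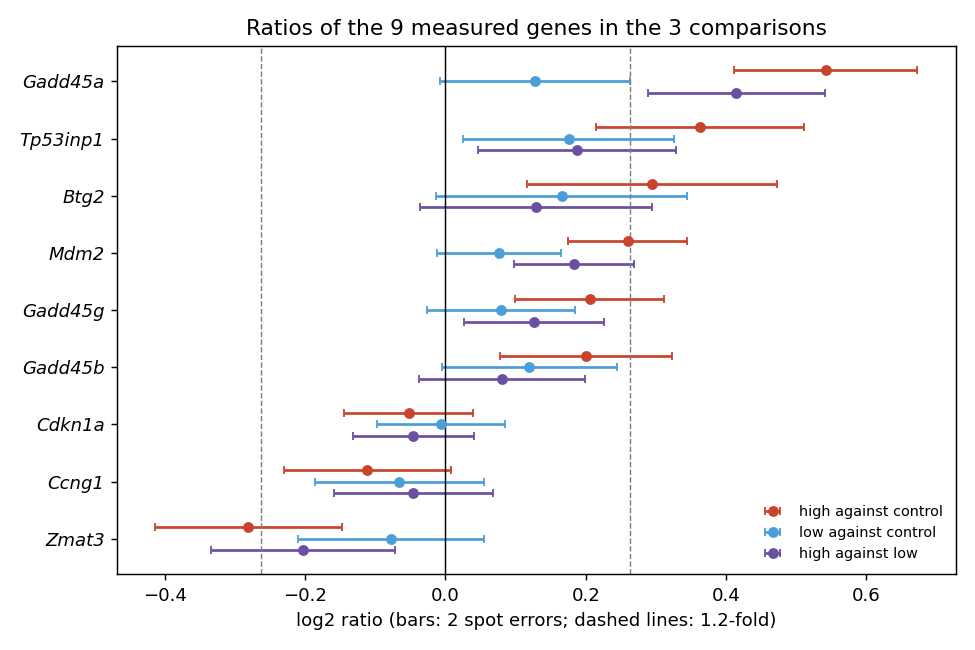
Log2 ratios of the 9 measured genes (horizontal axis) for the high dose against control, the low dose against control and the high against the low dose. Points are gene means over probes, bars are 2 spot errors and dashed lines mark 1.2-fold. Gadd45a at 0.54 is furthest to the right for the high dose and Zmat3 at -0.28 furthest to the left, and every low dose value lies between 0.18 and -0.08.

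The second comparison set the low dose against the control. The ratios ran from -0.08 for Zmat3 to 0.18 for Tp53inp1, with a median of 0.08 against 0.00 for all genes. None of the 9 was 1.2-fold apart, as were 3.99% of 14621 genes upward and 5.08% downward, or 0.752% and 0.506% among genes at or above the median level. One gene, Tp53inp1, was higher by more than 2 spot errors (4.16% of all genes) and none lower (4.4%). None was 2-fold apart (0.0684% of all genes higher, 0.0479% lower). By spots, 7 of 10 probes with 2 spots had both low dose spots above both control spots (18.9% of 8995 such probes) and 2, for Zmat3 and Cdkn1a, had both below (18.8%). Centred on spike-ins, 4 genes, Gadd45a, Gadd45b, Tp53inp1 and Btg2, were past 1.2-fold upward, as were 15.7% of all genes.

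The third comparison set the doses against each other, without the control array. Gadd45a was 1.33-fold higher at the high dose and was the 1 gene of the 9 past 1.2-fold, against 6.97% of 14480 genes, or 1.59% at or above the median level. None was 1.2-fold lower (6.13% of all genes, 1.7% at or above the median level), and none was 2-fold apart (0.0483% higher, 0.0276% lower). Gadd45g, Mdm2 and Tp53inp1 were also higher by more than 2 spot errors (9.75% of all genes), and Zmat3 was lower by as much (10.8%). Gadd45b, Btg2, Ccng1 and Cdkn1a lay within 2 spot errors.

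Each of the 9 genes had its low dose level between the control and the high dose level. This order was found in 42.2% of the 14388 genes measured on all 3 arrays, and in 44.4% at or above the median level. Gadd45a, Gadd45b, Gadd45g, Mdm2, Tp53inp1 and Btg2 went upward with dose, as did 19.8% of all genes. Zmat3, Ccng1 and Cdkn1a went downward, as did 22.4%. The place of Cdkn1a rests on a low dose ratio to control of -0.01 ± 0.05, which turned sign under 4 of the 10 alternatives. The steps between neighbours were often within the spot error. The step from control to low dose exceeded 2 spot errors for Tp53inp1, and that from low to high dose for Gadd45a, Gadd45g, Mdm2, Tp53inp1 and Zmat3. With centring on spike-ins the 6 upward genes kept their order, which 38.1% of all genes then had, and the other 3 were highest at the low dose, as were 51.0% of all genes. Of the 10 probes with 2 spots well above background, 7 had both high dose spots above both control spots (25.2% of 8917 such probes) and 3 had both below (28.6%). Between the doses the counts were 7 higher (23.6% of 8909) and 1 lower (27.0%).

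The rest of the pathway was read from 8 lists, 94 names in all, of which 66 genes other than the 10 were measured at the high dose. Of these, 10 were at least 1.2-fold higher (7.16% of all genes) and 5 lower (7.87%), with a median log2 ratio of 0.02. The integrated stress response list gave 4 of the 10. It was drawn up knowing that Ddit3 and Trib3 were higher in these arrays, so the pooled count is not independent of these data. At the low dose 4 were higher (3.99% of all genes) and 2 lower (5.08%). For the high against the low dose 4 were higher (6.97%), 3 of them from that same list, and 1 lower (6.13%). Among 12 measured p53 regulators the median at the high dose was 0.01. None was 1.2-fold higher and 2 were lower, the checkpoint kinase gene Chek2 (-0.29 ± 0.11) and Cdkn2a, which encodes the Mdm2 inhibitor ARF (-0.29 ± 0.25). Both are dim. Chek2 had a signal of 24.7 at the high dose and 28.1 in the control, and Cdkn2a had 24.95 and 30.6. For the low dose Chek1, another checkpoint kinase gene, was furthest from 0, at -0.13 ± 0.10.

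Of the 8 measured genes in each of the death and repair lists, none was past 1.2-fold at the high dose (7.16% of all genes higher, 7.87% lower). Centred on spike-ins, Bbc3 (0.41), Rrm2b (0.35), Gls2 (0.31), Fas (0.31) and Xpc (0.26) were past it, as were 22.4% of all genes upward. Of 8 measured cell death targets the median was 0.01, and the gene furthest from 0 was Bbc3, which encodes the BH3-only protein PUMA, at 0.26 ± 0.05 with signals of 3883, 3622 and 3212 at the high dose, the low dose and in the control. Of 8 DNA repair and metabolism targets the median was 0.04, with the ribonucleotide reductase gene Rrm2b furthest out at 0.19 ± 0.25. The death receptor gene Fas stood at 0.41 ± 0.36 and Rrm2b at 0.30 ± 0.25 at the low dose, both near background.

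Other arrest and stress targets spread in both directions. At the high dose 3 of 9 were 1.2-fold higher (7.16% of all genes) and 2 lower (7.87%), with a median of 0.03. Pml, a nuclear body gene, stood at -0.59 ± 0.20, the Cdc42 effector gene Cdc42ep3 at 0.38 ± 0.09 and the stress cytokine gene Gdf15 at 0.35 ± 0.07. The other 2, named after their values were seen, were the kinase gene Plk3 at -0.35 ± 0.22 and the mTORC1 inhibitor gene Ddit4 at 0.30 ± 0.04. At the low dose 1 was higher (3.99% of all genes) and 2 lower (5.08%). They were Gdf15 at 0.65 ± 0.07, Plk3 at -0.53 ± 0.23 and Pml at -0.47 ± 0.18. Gdf15 was thus highest at the low dose (signals 807, 1023 and 627 at the high dose, the low dose and in the control), an order that none of the 9 genes had under the same scaling. Against the low dose, the high dose stood at -0.30 ± 0.07 for Gdf15 and 0.34 ± 0.09 for Cdc42ep3.

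Of 10 measured close relatives of the 10 genes, 3 were 1.2-fold higher at the high dose (7.16% of all genes) and 1 lower (7.87%). Their median was 0.09. The higher ones were Cdkn1b, which encodes the CDK inhibitor p27 (0.33 ± 0.03), the cyclin G2 gene Ccng2 (0.29 ± 0.07) and the sestrin gene Sesn3 (0.28 ± 0.12). The lower one, named after its value was seen, was Tp53inp2 (-0.26 ± 0.13), the paralog of Tp53inp1. Cdkn1b, of the same inhibitor family as Cdkn1a, read 893, 771 and 706 at the high dose, the low dose and in the control. None of 11 was past 1.2-fold at the low dose (3.99% of all genes higher, 5.08% lower), and Cdkn1c stood furthest out at -0.25 ± 0.25. The 11 measured GADD45 partners had a median of -0.12 at the high dose, with 8 below 0 and 3 above (47.9% of all genes above). None of these partners was past 1.2-fold (7.16% of all genes higher, 7.87% lower), and the p38 kinase gene Mapk14 was furthest out at -0.20 ± 0.05. Their low dose median was -0.02, with Mapk8 at 0.15 ± 0.06. The 3 measured INK4 inhibitors were all below 0 at the high dose, and 1, Cdkn2a, was 1.2-fold lower (7.87% of all genes). For the low dose 2 were measured, with Cdkn2c furthest from 0 at -0.06 ± 0.09. Centred on spike-ins, the high dose median was 0.04 for the GADD45 partners and 0.06 for the INK4 inhibitors, so these signs rest on the scaling.

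The integrated stress response and other regulators around Gadd45a formed a list of 9 names with 6 measured. All 6 were above 0 at both doses, as were 47.9% of all genes at the high and 50.4% at the low dose. At the high dose 4 were 1.2-fold higher (7.16% of all genes) and at the low dose 1 (3.99%), with medians of 0.43 and 0.09. The largest ratios at the high dose were those of Ddit3, which encodes CHOP (0.72 ± 0.05), the pseudokinase gene Trib3 (0.63 ± 0.06) and the dim Brca1 (0.49 ± 0.25). The fourth was the transcription factor gene Cebpb (0.37 ± 0.06), named after its value was seen. At the low dose Ddit3 stood at 0.22 ± 0.05, Trib3 at 0.11 ± 0.06 and Brca1, the 1 past 1.2-fold, at 0.31 ± 0.26. Against the low dose, the high dose was higher by 0.52 ± 0.06 for Trib3, 0.50 ± 0.05 for Ddit3 and 0.31 ± 0.05 for Cebpb. This list was drawn up knowing that Ddit3 and Trib3 were higher in these arrays.

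**Figure D3:**
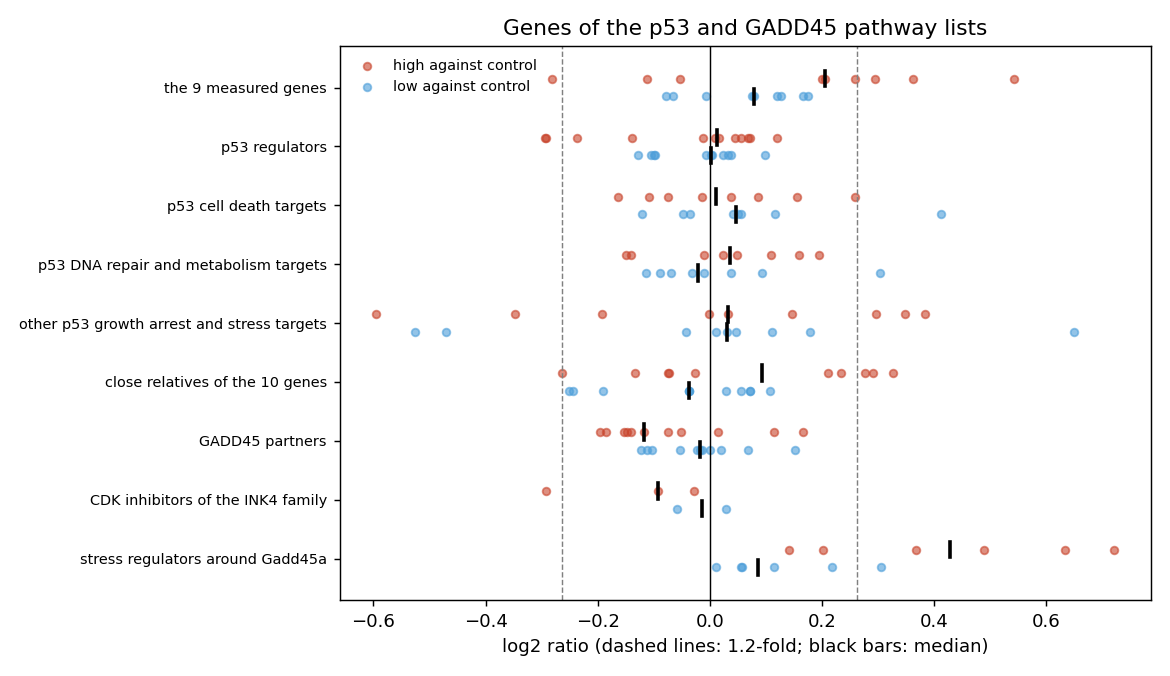
Log2 ratios of the 9 measured genes and of the measured genes of the 8 pathway lists (rows) for the high dose and the low dose against control. Each point is a gene, black bars are medians and dashed lines mark 1.2-fold. The high dose median is 0.21 for the 9 genes and 0.43 for the stress regulators around Gadd45a, and lies between -0.12 and 0.09 for the other lists.

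The genes most like the extremes of the 10 were found by the distance between pairs of log2 ratios (high and low dose against control) among 4934 named genes at or above the median level on the 3 arrays. Nearest to Gadd45a were Ifi27l2b (distance 0.02), the collagen gene Col15a1 (0.02) and Ppp1r15a (0.06), which encodes the stress-induced phosphatase subunit GADD34. Their ratios to control were 0.53, 0.55 and 0.60 for the high, and 0.12, 0.11 and 0.12 for the low dose. In all, 8 genes lay within 0.1 of Gadd45a. Nearest to Zmat3 were the histone gene Hist1h4b, the mitochondrial carrier gene Slc25a10 and the chromatin assembly gene Chaf1a, each at a distance of 0.004. There were 258 genes within 0.1 of Zmat3. Spot errors of the ratios of the named genes ran from 0.04 to 0.08 near Gadd45a and from 0.06 to 0.08 near Zmat3. The order among such close neighbours is therefore not resolved.

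Promoter sequences from RefSeq (build GRCr8, 250 bases before to 50 after the start) matched 8 of the 10 genes. Shown are the last 160 bases before the start of the 3 GADD45 genes, whose ratios to control were all above 0, and the Cdkn1a stretch from 250 to 91 bases before its start. Capitals mark CCAAT and ATTTGCAT in the GADD45 genes and the p53 decamer, a single arm of the p53 response element, in Cdkn1a. The Gadd45a stretch also holds a p53 decamer, 48 bases before the start, which is left in lower case. The Gadd45a stretch is chr4:97486800-97486959, Gadd45b chr7:9430719-9430878 and Gadd45g chr17:13530352-13530511, all on the minus strand, and Cdkn1a chr20:7150682-7150841 on the plus strand.
Gadd45a: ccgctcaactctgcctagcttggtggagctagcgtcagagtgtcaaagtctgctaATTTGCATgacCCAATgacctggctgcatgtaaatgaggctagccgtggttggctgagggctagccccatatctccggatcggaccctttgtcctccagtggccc
Gadd45b: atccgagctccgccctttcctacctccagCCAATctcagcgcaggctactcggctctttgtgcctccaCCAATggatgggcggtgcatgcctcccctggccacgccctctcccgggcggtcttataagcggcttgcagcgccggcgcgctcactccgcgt
Gadd45g: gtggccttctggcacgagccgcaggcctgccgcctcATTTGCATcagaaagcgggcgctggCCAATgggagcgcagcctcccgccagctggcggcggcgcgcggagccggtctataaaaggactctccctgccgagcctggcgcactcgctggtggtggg
Cdkn1a: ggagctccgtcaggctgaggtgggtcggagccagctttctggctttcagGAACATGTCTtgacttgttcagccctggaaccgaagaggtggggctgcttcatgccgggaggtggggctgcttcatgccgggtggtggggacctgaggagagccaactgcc
In all, 13 motifs were searched on both strands of the 300-base windows, and these 4 stretches were chosen after the matches were seen. CCAAT was in 7 of 8 windows, all but Cdkn1a, and in 37.5% of the 33469 promoters of the table. ATTTGCAT, the octamer, was in Gadd45a (105 bases before the start) and Gadd45g (124 bases before), and in 1.78% of all promoters. GGGCGG was in 6 of 8 (33.1% of all), and TGACGTCA in Btg2 alone (1.83%). The p53 decamer was in Gadd45a, Ccng1, Cdkn1a and Sesn1 (7.98% of all). Of these 4 genes, Gadd45a was higher at the high dose, and Ccng1 and Cdkn1a lay within 2 spot errors of the control. Sesn1 was well above background at the high dose alone. Of the 8 other motifs, TGACG, which is part of TGACGTCA, was in 6 (21.2%), TGACNNNGC in 3 (12.1%) and CACGTG in 2 (6.42%). TATAAA (14.2%), TGATGNAAN (3.97%) and TTGCATCA (0.795%) were each in Gadd45g alone, where TGATGNAAN and TTGCATCA overlap the octamer. In Cdkn1a TGACNNNGC overlaps TGACG, and in Btg2 matches of GGGCGG overlap each other. TTTCGCGC (0.326%) and the CArG box (1.64%) were in none.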

How the data were processed

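Total RNA of 3 samples, 1 per group, was labelled with Cy3, per the labels' protocols. The authors deposited scanner files with intensity values from Agilent Feature Extraction 10.7.3.1 (protocol GE1_107_Sep09, array design 028279, build rn4), per the file headers. The processed signal was detrended within the array, spatially and multiplicatively, per the file headers, with no scaling between arrays. The series table that the authors deposited holds a ratio, the processed signal over 1 constant per array (823, 849 and 823 for the high dose, the low dose and the control), and served as an alternative. Its making was not given in the sources used here.

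Here each signal was divided by the 75th percentile of 58717 non-control spots on its array, turned to log2 and averaged over the spots of a probe, leaving out outlier spots. A probe was measured where at least 50% of its spots were well above background on both arrays, and a gene's ratio is the mean over such probes. Of 30367 probes, 55.9% to 57.2% were well above background, and the number of arrays limits the precision. Spot errors pooled repeat spots, all well above background, in 20 bins of level, and the ratio step was tested on simulated data. The 3 arrays share a slide, and position on it cannot be told apart from group. All 10 genes are reported, with up to 3 genes per pathway list and comparison, those furthest from 0 past 1.2-fold or else the 1 furthest, and the 3 genes nearest to the highest and lowest of the 10. The genes, lists and rules were chosen with earlier results of these data known. The alternatives changed background correction, scaling, filters, the choice of probe and gene names. RefSeq accessions (GRCr8 names) matched 12 of the 13 probes and changed no name. Python 3.11.15 and limma 3.58.1 (normexp) were used.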

Additional observations from a re-analysis of the deposited data

How the results depend on the processing

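The 3 medians, the counts past 1.2-fold and each gene's ratios were recomputed under 10 alternatives. With arrays centred on spike-in probes the high dose median was 0.36 with 6 genes higher and 0 lower (22.4% and 2.57% of all genes), and the low dose median 0.24 with 4 higher and 0 lower (15.7% and 1.79%). The cause of the spike-in shift was not tested. Without a filter on dim probes the count lower at the high dose was 0, because the dim Zmat3 probe entered the mean, and Sesn1 entered the counts, which gave 1 higher at the low dose and 2 for the high against the low dose. Thresholds added after seeing the data gave, for the high dose, 5 higher at 15% apart, and 1 higher and 0 lower at 30% apart. For the high against the low dose they gave 1 lower at 15% apart. The share of all genes past these added thresholds is not given here, so these counts have no background to be read against. Quantile normalization, median centring and the authors' deposited table each gave 4 higher at the high dose, with Mdm2 added. The shares of all genes were 7.73%, 7.67% and 8.26% in that order. Normexp gave 2, without Btg2, against 2.34% of all genes. The Gadd45a ratio at the high dose ranged from 0.49 to 0.70. Of 270 recomputed single-gene ratios, 247 moved by at most 1 spot error and 23 by more, and no gene past 1.2-fold changed direction. Leaving out a replicate was not possible with 1 array per group. No paired analysis was possible because each group holds 1 array. Signal over background limits Sesn1 and the Zmat3 probe at base 995.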
